A study of Mus musculus with 15 samples.

Results

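Krt7, Krt8, Krt18 and Krt19 encode the keratins of simple, single-layered epithelia, among them the trophectoderm, the outer layer of the blastocyst. They were chosen by gene symbol. All 4 of 4 had a row among the 21516 gene symbols of the count tables, and all 4 passed the filter on low counts, which 9390 genes passed. The cells were mouse embryonic stem cells of a line labelled REX-1 RFP, named after Rex1 (Zfp42), a gene of undifferentiated cells, and a red fluorescent protein. Every group was first grown with leukaemia inhibitory factor (LIF), the cytokine that keeps mouse stem cells undifferentiated, and then kept for 72 h in its own condition. The groups called Sorb200, Sorb250 and Sorb300 here had LIF and sorbitol, an osmolyte that makes the medium hypertonic, at 200, 250 and 300 mM. The ND group (normal differentiation) had no LIF, and the NS group (normal stemness) had LIF and no sorbitol. Each group had 3 libraries, labelled as biological triplicates, of 1 reporter line, which made 15 in all.

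Keratin filaments are built from pairs of 1 type II and 1 type I chain. Krt8 and Krt7 are type II chains, Krt18 and Krt19 are type I chains, and Krt8 with Krt18 is the pair that appears first in the mouse embryo. An unpaired chain is degraded, so the amount of filament depends on both partners. In the early mouse embryo these keratins mark trophectoderm and its trophoblast descendants, and Krt8 and Krt18 were first described in extraembryonic endoderm of the mouse as Endo A and Endo B. Mice without Krt8, or without both Krt18 and Krt19, have defects of the trophoblast giant cell layer.

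The promoter windows are shown because all 4 members were called higher than NS at 250 and 300 mM. RefSeq windows of the build GRCm38.p6, from 250 bases before to 50 bases after the annotated start, were found for 3 of the 4 members, all on chromosome 15. They are Krt7 at chr15:101412153-101412452 on the plus strand, Krt8 at chr15:102004293-102004592 on the minus strand and Krt18 at chr15:102027966-102028265 on the plus strand. Krt8 and Krt18 are neighbours among the keratin genes and are read from opposite strands. Krt18 is the type I gene that sits within the type II cluster. Capitals mark matches, on either strand, to the searched motifs, searched as follows. The TATA box was searched as TATAAA, and the box bound by Sp1 (the GC box) as GGGCGG. For AP-1 the letters were TGANTCA, for ETS factors CCGGAA, and for TEAD factors GGAATG. For GATA factors they were AGATAA, for the core of the tonicity-responsive enhancer TGGAAA, and for the pentamer bound by NF-Y just CCAAT.
Krt7: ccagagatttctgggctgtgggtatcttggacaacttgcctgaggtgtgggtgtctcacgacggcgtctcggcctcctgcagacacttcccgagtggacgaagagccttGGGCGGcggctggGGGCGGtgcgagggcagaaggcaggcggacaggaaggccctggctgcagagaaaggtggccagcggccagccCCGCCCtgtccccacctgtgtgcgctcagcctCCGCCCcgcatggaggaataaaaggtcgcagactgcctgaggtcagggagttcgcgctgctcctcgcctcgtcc
Krt8: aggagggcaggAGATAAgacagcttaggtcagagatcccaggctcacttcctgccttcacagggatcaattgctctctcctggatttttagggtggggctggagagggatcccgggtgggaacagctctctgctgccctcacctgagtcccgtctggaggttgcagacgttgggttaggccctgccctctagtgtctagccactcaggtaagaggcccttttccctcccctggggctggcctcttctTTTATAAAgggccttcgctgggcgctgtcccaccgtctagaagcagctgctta
Krt18: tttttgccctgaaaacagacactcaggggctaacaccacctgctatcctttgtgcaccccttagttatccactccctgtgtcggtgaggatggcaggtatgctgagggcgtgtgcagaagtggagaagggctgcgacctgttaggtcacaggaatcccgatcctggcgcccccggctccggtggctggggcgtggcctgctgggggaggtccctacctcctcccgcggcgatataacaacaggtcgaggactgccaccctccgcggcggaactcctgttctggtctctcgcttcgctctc
The Krt7 window held 4 GC boxes, a motif that 35.7% of 32851 promoter windows of this length held. The Krt8 window held TATA box matches on both strands that overlap each other at the annotated start (13.6% of windows) and 1 GATA match at -239 from the start (11.2% of windows). The Krt18 window held none of these strings. No member matched the AP-1 string (7.81% of windows), the ETS string (14.9%), the TEAD string (14.7%), the tonicity-responsive core (21.4%) or the NF-Y string (37.4%). A match is a run of letters, not a site of binding, and its absence says only that these letters are not in the window. G and C made up 66.3% of the Krt7 window, 58.0% of the Krt8 window and 61.3% of the Krt18 window, against a median of 52.7% over all windows.

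Expression was measured by 3' tag sequencing (QuantSeq), which yields about 1 tag per transcript, so that counts do not scale with transcript length. Library totals ran from 968556 to 2289528 counts. The range was 1872918 to 2289528 in the replicates numbered 1, which were the deepest, and 968556 to 1229075 in the others. Levels are given as CPM (counts scaled by library totals), and 1 count amounted to 0.437 to 1.03 CPM of the unscaled totals. Changes are log2 ratios with their standard error (SE) from edgeR's quasi-likelihood test, and the adjusted p is Benjamini-Hochberg over all genes tested, with a threshold of 0.05. Beside the label of the cells, 11 markers of undifferentiated stem cells were read. Their summed level was 2687 to 3496 CPM in the sorbitol libraries, 1524 to 2618 CPM in ND and 2589 to 3159 CPM in NS, and none was at 0 in any group. Since ND overlapped NS and also held every marker, these values cannot decide whether the label is right.

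Sorbitol raised the simple keratins over NS. All 4 rose at 250 mM and all 4 at 300 mM, and at 200 mM Krt18 alone passed the threshold in the main fit, which has no replicate block. Of all genes tested, 0.405% were called higher than NS at 200 mM, 2.01% at 250 mM and 3.23% at 300 mM. With the replicate number as a block, Krt8 (adjusted p = 0.00400 in edgeR's test) and Krt19 (0.00850) also passed at 200 mM. That fit called 150 genes higher than NS at 200 mM. Without LIF, in ND, no keratin passed, and 0% of the genes tested were called higher there (0 genes, with 600 of all genes at an unadjusted p under 0.05). The summed level of the 4 keratins was 119.7 ± 28.1 CPM in ND, against 57.0 ± 19.7 CPM in NS (SD, n = 3 each). By dose the sum was 57.0 ± 19.7 CPM in NS, 302 ± 156 at 200 mM, 381 ± 89.2 at 250 mM and 318 ± 101 at 300 mM, or 5.30, 6.69 and 5.58 times the NS mean at the 3 doses. In bulk RNA, more cells of a keratin-positive type and more keratin RNA per cell cannot be told apart.

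**Figure D1:**
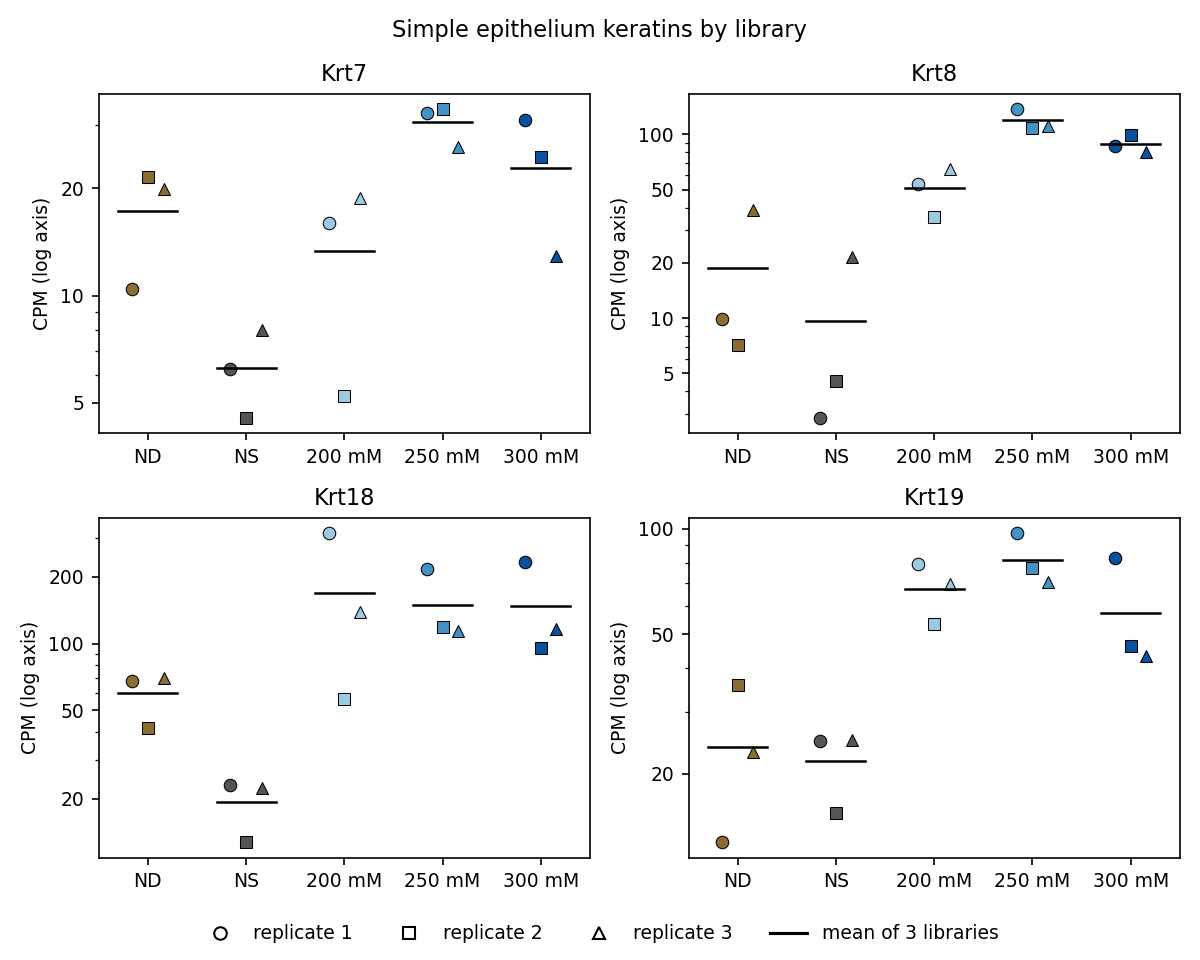
Level of each keratin in every library, in CPM on a log axis, for ND, NS and the 3 sorbitol doses. Symbols are replicates 1, 2 and 3 and the line is the mean of 3. At 250 mM all 3 libraries of each keratin lie above all 3 NS libraries, and Krt8 in NS spreads from 2.87 to 21.4 CPM.

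Krt8, the type II chain of the first embryonic pair, showed the largest changes of the 4 at 250 and 300 mM. At 200 mM it stood at 53.8, 35.6 and 64.5 CPM in replicates 1, 2 and 3, against 2.87, 4.54 and 21.4 CPM in NS. It stood at 138, 108 and 112 CPM at 250 mM and at 87.0, 99.4 and 80.1 CPM at 300 mM. All 9 sorbitol libraries lay above the highest NS library, which was replicate 3, and in NS replicate 3 stood well above replicates 1 and 2. The log2 change was 3.72 ± 0.61 at 250 mM (SE; adjusted p = 0.00367 in edgeR's test), a 13.2-fold difference. At 300 mM it was 3.30 ± 0.61 (adjusted p = 0.00486 in edgeR's test). Both calls stood without any 1 library, with log2 changes of 3.18 to 5.05 at 250 mM and 2.76 to 4.63 at 300 mM, the higher end being without NS 3. At 200 mM the change of 2.51 ± 0.61 missed the threshold (adjusted p = 0.0796 in edgeR's test). With the replicate number as a block it was 2.62 and passed (adjusted p = 0.00400), and without NS 3 it was 3.84 and passed (adjusted p = 0.00736). NS held only 35 Krt8 counts in its 3 libraries, against 221 at 200 mM, 540 at 250 mM and 365 at 300 mM. The counts of Krt8 are uncertain in one respect, since its transcript aligned over 941 bases at 98.6% identity to the processed pseudogene Krt8-ps and over 102 bases without a mismatch to the lincRNA Gm36026. Neither symbol had a row in the tables analysed here, and no such copy was found for the other 3 members.

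Krt18, the type I partner of Krt8, rose at each dose by about the same amount. In replicates 1, 2 and 3 it stood at 314, 56.5 and 139 CPM at 200 mM, against 22.9, 12.7 and 22.3 CPM in NS. It stood at 216, 118 and 114 CPM at 250 mM and at 233, 96.0 and 116 CPM at 300 mM. Replicate 1 was the highest of the 3 at every dose, and no sorbitol library overlapped NS. The log2 changes were 3.13 ± 0.54 at 200 mM (SE; adjusted p = 0.0122 in edgeR's test), 2.93 ± 0.53 at 250 mM (0.00713) and 2.93 ± 0.53 at 300 mM (0.00472). These amount to 8.73-, 7.64- and 7.60-fold. The 200 mM call was lost without NS 1 (log2 3.28, adjusted p = 0.0628) or NS 2 (2.91, 0.108) and the 250 mM call without NS 2 (2.73, 0.0514). Without Sorb200 1 the change at 200 mM was 2.32, and its call stood. The 300 mM call stood without any 1 library, with adjusted p up to 0.0325.

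Krt19, a type I keratin without the usual tail domain, was with Krt18 the most abundant of the 4 in NS. At 200 mM it stood at 79.1, 53.4 and 69.4 CPM in replicates 1, 2 and 3, against 24.8, 15.5 and 24.98 CPM in NS. It stood at 96.9, 77.0 and 70.5 CPM at 250 mM and at 82.7, 46.3 and 43.3 CPM at 300 mM. No sorbitol library overlapped NS at any dose. The log2 change was 1.89 ± 0.36 at 250 mM (SE; adjusted p = 0.00914 in edgeR's test) and 1.40 ± 0.36 at 300 mM (0.0273). At 200 mM it was 1.62 ± 0.36 and just missed the threshold (adjusted p = 0.0504 in edgeR's test). It passed there with the replicate block (1.63, adjusted p = 0.00850) and without NS 3 (1.71, adjusted p = 0.0462). Leaving out NS 2 ended the 250 mM call (1.72, adjusted p = 0.0589). The 300 mM call was lost without Sorb300 1 (1.03, adjusted p = 0.116), Sorb300 2 (1.53, 0.0577), NS 1 (1.52, 0.0669) or NS 2 (1.23, 0.112).

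Krt7, a type II keratin of simple and ductal epithelia and a marker of trophoblast, was the least abundant of the 4 at every dose. In replicates 1, 2 and 3 it stood at 15.9, 5.23 and 18.8 CPM at 200 mM, against 6.21, 4.54 and 8.03 CPM in NS. It stood at 32.5, 33.3 and 26.1 CPM at 250 mM and at 31.01, 24.4 and 12.9 CPM at 300 mM. The groups did not overlap at 250 and 300 mM, and at 200 mM replicate 2 lay within the NS range. Its log2 change was 2.28 ± 0.45 at 250 mM (SE; adjusted p = 0.0123 in edgeR's test) and 1.87 ± 0.46 at 300 mM (0.0212). At 200 mM the change of 1.12 ± 0.47 did not pass (adjusted p = 0.386 in edgeR's test, 95% interval 0.12 to 2.12). Leaving out NS 1 (2.27, adjusted p = 0.061) or NS 2 (2.13, 0.0647) ended the 250 mM call. The 300 mM call was lost without Sorb300 1 (1.57, adjusted p = 0.0814), Sorb300 2 (1.83, 0.0735), NS 1 (1.86, 0.0808) or NS 2 (1.73, 0.0874). NS held 27 Krt7 counts in all, so that single NS libraries rested on 5 to 13 counts.

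Counting keratins whose libraries all exceeded all NS libraries gave 3 of 4 at 200 mM, 4 of 4 at 250 mM and 4 of 4 at 300 mM. Of all genes tested, 6.08%, 13.9% and 13.1% did so at those doses. In ND it was 2 of 4, Krt7 and Krt18, against 4.08% of all genes. In the authors' deposited table, Krt8 (adjusted p = 0.00561), Krt18 (9.26e-06) and Krt19 (0.00889) passed 0.05 at 200 mM and Krt7 did not (0.529). The authors' deposited tables for 250 and 300 mM had all 4 past 0.05, and the authors' deposited table for ND had none. Of the 21516 genes there, 0.651%, 2.77% and 4.35% were past 0.05 in either direction at 200, 250 and 300 mM. In ND the share was 0.0744%, or 16 genes.

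ND, in which LIF was withdrawn, differed from NS by less than the test could call in each of the 4 keratins. Krt18 had 67.7, 41.8 and 70.03 CPM in ND, against 22.9, 12.7 and 22.3 CPM in NS, with no overlap and a log2 change of 1.62 ± 0.53 (SE; adjusted p = 0.542 in edgeR's test). Between libraries of the same number it was higher than NS by 1.52, 1.64 and 1.61 on the scale of log2(CPM + 1). The numbers were not taken to pair ND with NS, so these differences depend on how the libraries are matched. Krt7 had 10.4, 21.5 and 19.9 CPM in ND, against 6.21, 4.54 and 8.03 CPM in NS, also without overlap (log2 1.41 ± 0.47, adjusted p = 0.542 in edgeR's test). Both type I and type II chains thus had 1 member whose ND libraries all lay above NS and 1 whose libraries overlapped. Krt8 had 9.94, 7.16 and 39.0 CPM in ND, against 2.87, 4.54 and 21.4 CPM in NS. Replicate 3 was the highest in both groups, and the groups overlapped (log2 1.06, 95% interval -0.28 to 2.40). Krt19 had 12.8, 35.8 and 23.1 CPM in ND, against 24.8, 15.5 and 24.98 CPM in NS. It overlapped fully, with a log2 change of 0.06 and a 95% interval of -0.74 to 0.86.

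Set directly against ND, the sorbitol groups differed in Krt19 at each dose and in Krt8 at 250 and 300 mM, while Krt18 and Krt7 did not pass. These comparisons share their sorbitol libraries with those against NS. Krt19 was higher than in ND at 200 mM (log2 1.56 ± 0.36, adjusted p = 0.0349 in edgeR's test), 250 mM (1.83 ± 0.36, 0.00755) and 300 mM (1.33 ± 0.36, 0.0278). Krt8 was higher at 250 mM (2.66 ± 0.56, adjusted p = 0.0105 in edgeR's test) and 300 mM (2.24 ± 0.56, 0.0184). That made 1, 2 and 2 keratins called higher than ND, where 1.26%, 2.88% and 4.5% of all genes tested were called higher. Krt18 differed by 1.504, 1.31 and 1.30 at the 3 doses and missed the threshold at each (adjusted p = 0.1604, 0.125 and 0.105 in edgeR's test). With the replicate block, Krt8 (1.56, adjusted p = 0.0362) and Krt18 (1.33, 0.00756) also passed at 200 mM. That fit called 298 genes higher than ND at 200 mM. Krt7 differed from ND by -0.29, 0.87 and 0.47, with 95% intervals of -1.20 to 0.63, 0.00 to 1.74 and -0.42 to 1.35. Leaving out 1 library left Krt19 called at 250 mM in every case. At 200 mM its call was lost without Sorb200 1 (adjusted p = 0.123), Sorb200 3 (0.0874), ND 1 (0.141) or ND 3 (0.103), and at 300 mM without Sorb300 1 (0.142), ND 1 (0.125) or ND 3 (0.0651). Krt8 lost its call at 250 mM without ND 1 (0.0540) and at 300 mM without Sorb300 2 (0.05997), ND 1 (0.0807) or ND 2 (0.0729). At 200 mM Krt18 passed without Sorb200 2 (0.0345) and Krt8 without ND 3 (0.0450).

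**Figure D2:**
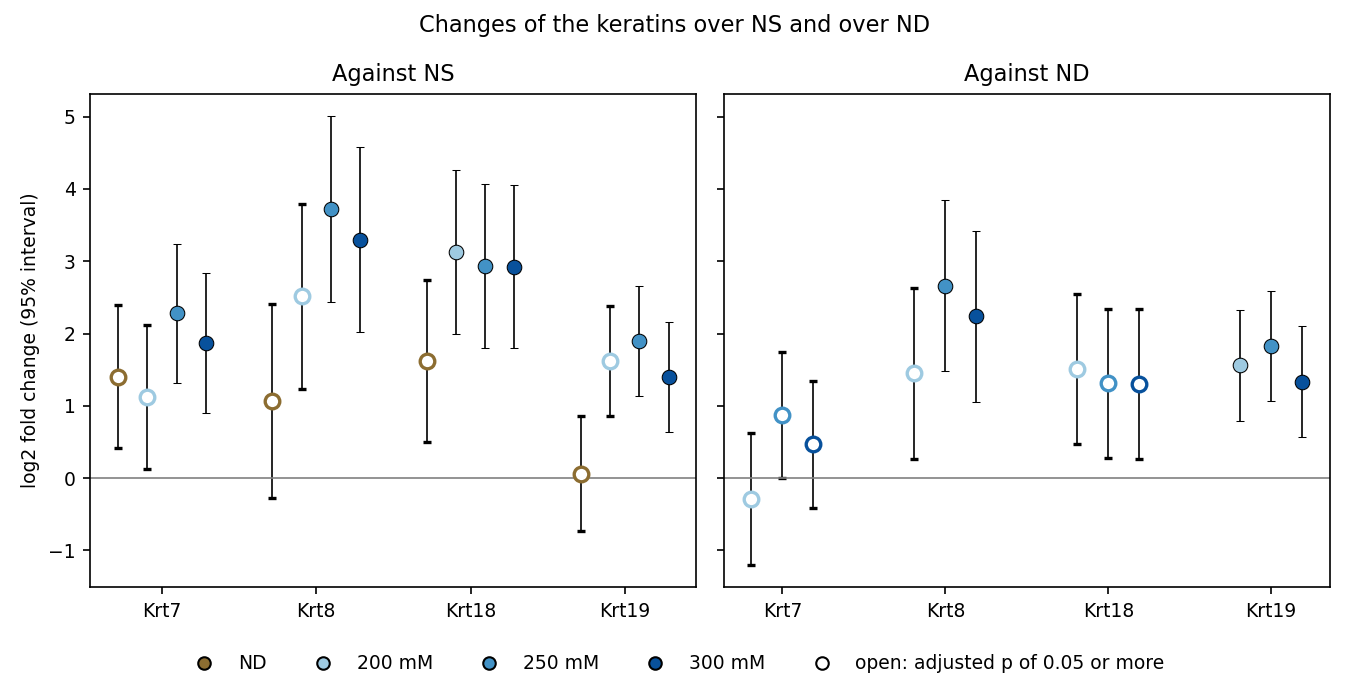
Log2 fold change of each keratin against NS (left: ND, then 200, 250 and 300 mM) and against ND (right: 200, 250 and 300 mM), with 95% intervals. Filled points passed an adjusted p of 0.05 and open points did not: against NS every keratin passed at 250 and 300 mM, and against ND only Krt8 and Krt19 passed.

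Between neighbouring doses no keratin passed the test. In edgeR's test 0 of 9390 genes (0%) were called between 250 and 200 mM and 0 (0%) between 300 and 250 mM, with 608 and 138 genes at an unadjusted p under 0.05. Between 250 and 200 mM the type II chains Krt7 and Krt8 were higher at 250 mM by 1.16 ± 0.41 and 1.21 ± 0.52 (SE; adjusted p = 0.688 and 0.758), and their libraries did not overlap. Of all genes tested, 5.57% had all 250 mM libraries above all 200 mM libraries. The type I chains differed by -0.19 (Krt18, 95% interval -1.19 to 0.80) and 0.27 (Krt19, -0.44 to 0.98). Between 300 and 250 mM all 4 estimates were below 0, from -0.49 for Krt19 to -0.01 for Krt18, and each interval spanned 0. Krt8 had all 3 libraries at 300 mM below those at 250 mM, as had 5.15% of all genes tested, and the other 3 keratins overlapped. The sign for Krt18 there turned with DESeq2's size factors. A linear slope over the 9 sorbitol libraries gave 0.35 per 50 mM for Krt7 and 0.38 for Krt8, against -0.11 for both Krt18 and Krt19. None passed (adjusted p = 0.477 to 0.910 in edgeR's test), and 0.101% of 8928 genes did. The 95% intervals of the slopes ran from -0.17 to 0.86 for Krt7 and from -0.03 to 0.79 for Krt8 and spanned 0.

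The makeup of the keratin tags was examined next, because a ratio within a library needs no scaling between libraries. In NS, Krt19 gave the largest share of the tags of the 4 keratins, 39.2 ± 5.89%, followed by Krt18 with 34.5 ± 5.64%, Krt8 with 15 ± 11.7% and Krt7 with 11.2 ± 0.896% (SD, n = 3). With sorbitol Krt18 was first, at 51 ± 15.5, 38.4 ± 5.48 and 45.3 ± 8.86% at 200, 250 and 300 mM. Krt8 reached 31.7 ± 3.09% at 250 mM and 29.7 ± 8.82% at 300 mM. The share of Krt19 was 21.6 ± 1.44% at 250 mM and 17.9 ± 1.03% at 300 mM. At those doses, but not at 200 mM, its 3 libraries all lay below the lowest NS library, which had 32.6%. Krt18 and Krt19 overlapped in NS, while at 250 mM the lowest Krt18 share (35.1%) lay just above the highest Krt8 share (34.6%).

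Krt8 tags per Krt18 tag numbered 0.171, 0.630 and 0.465 at 200 mM, against 0.125, 0.357 and 0.960 in NS. They numbered 0.637, 0.913 and 0.979 at 250 mM and 0.373, 1.04 and 0.690 at 300 mM. Replicate 1 had the lowest ratio in all 5 groups, and NS alone spanned nearly the whole range. On the scale of log2 with 1 added to each count, the ratio differed from NS by -0.03, 1.13 and 0.76 at the 3 doses (exact permutation p = 1.0, 0.3 and 0.5, 2-sided, n = 3 against 3). ND had 0.147, 0.171 and 0.557 Krt8 tags per Krt18 tag and differed from NS by -0.57 (exact permutation p = 0.7). The ratio of both type II to both type I keratins gave exact permutation p of 0.8, 0.2 and 0.3 at the 3 doses and 0.7 in ND, where 0.1 is the smallest that 3 against 3 allows, so none of these 8 tests could pass 0.05.

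**Figure D3:**
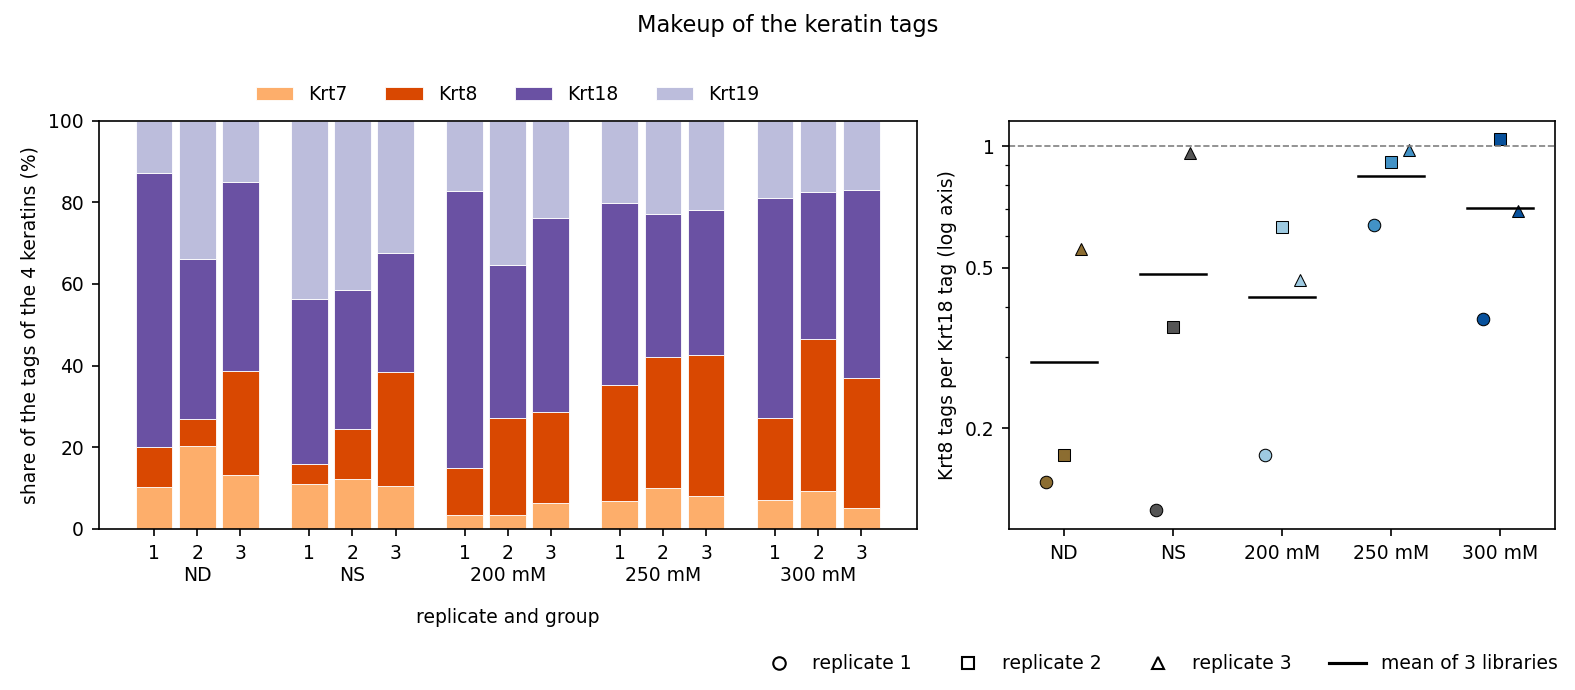
Left, share of each keratin (%) among the tags of the 4 in every library, by group and replicate. Right, Krt8 tags per Krt18 tag on a log axis with group means and a dashed line at 1. Krt19 takes a mean of 39.2% in NS and 17.9% at 300 mM, and replicate 1 has the lowest Krt8 to Krt18 ratio in each group.

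None of the other keratins was called higher than NS with sorbitol, and both of the more abundant ones were called lower. Of 47 other keratin symbols (Krt followed by a number) 18 had no count in any library, 26 had fewer than 50 counts in all, and 3 passed the filter, Krt10, Krt17 and Krt42. The lower calls were 1 at 200 mM, 2 at 250 mM and 2 at 300 mM, where 0.181%, 2.46% and 4.66% of all genes tested were called lower. Krt42, a type I keratin, was the most abundant keratin of the NS libraries by tags, with 160.0, 118 and 98.2 CPM. At 250 mM it had 49.2, 42.9 and 59.4 CPM, and at 300 mM 59.3, 51.4 and 47.0 CPM, all below every NS library. The log2 changes were -1.32 ± 0.34 (SE; adjusted p = 0.0374 in edgeR's test) and -1.25 ± 0.34 (0.0339). At 200 mM the change was -1.40 ± 0.34 (adjusted p = 0.0850 in edgeR's test), and with the replicate block it was -1.44 and passed (0.00708). Each of the 2 calls was lost on leaving out any of 5 of the 6 libraries, all but NS 3, with adjusted p up to 0.168 and 0.146.

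Krt17, a type I keratin of stratified epithelia and their appendages, had 8.96, 1.05 and 4.90 CPM at 200 mM, against 43.5, 32.7 and 24.98 CPM in NS. It had 6.29, 2.38 and 3.96 CPM at 250 mM and 4.35, 5.06 and 7.37 CPM at 300 mM, and no sorbitol library overlapped NS. Of all genes tested, 6.28%, 14.1% and 14.7% had all libraries below all NS libraries at 200, 250 and 300 mM. The log2 changes were -2.61 ± 0.52 at 200 mM (SE; adjusted p = 0.0338 in edgeR's test), -2.93 ± 0.53 at 250 mM (0.00713) and -2.62 ± 0.53 at 300 mM (0.00831). Those at 250 and 300 mM stood without any 1 library, and that at 200 mM was lost in 4 of 6 cases (without Sorb200 2 or 3, or NS 1 or 2), with adjusted p up to 0.144. In ND neither gene passed, although no ND library of either overlapped NS, where 4.28% of all genes tested had all ND libraries below all NS libraries. Krt42 had 37.4, 28.7 and 65.3 CPM there (log2 -1.51, adjusted p = 0.240 in edgeR's test) and Krt17 had 14.7, 3.58 and 12.7 CPM (log2 -1.63, 0.471). Krt10, a keratin of differentiating epidermis, changed by 0.42, -1.05 and -0.74 at 200, 250 and 300 mM and passed at none. Summed over the 47, the other keratins had 60.7 to 102 CPM at 200 mM, 62.7 to 77.6 at 250 mM and 61.5 to 90.3 at 300 mM, against 149.9 to 224.5 CPM in NS. The 4 simple keratins summed to 151 to 463, 322 to 483 and 252 to 434 CPM at these doses, against 37.3 to 76.7 CPM in NS.

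**Figure D4:**
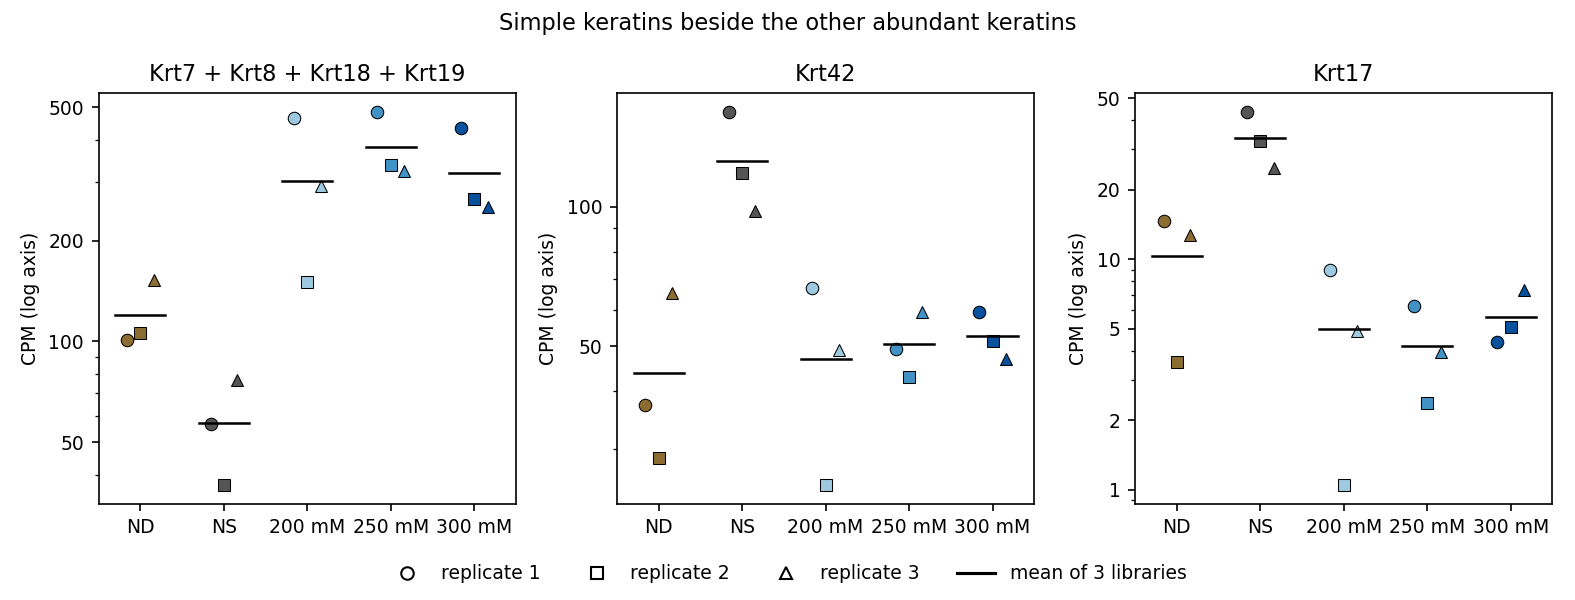
CPM on a log axis in every library for the sum of the 4 simple keratins, for Krt42 and for Krt17, in ND, NS and the 3 sorbitol doses (symbols are replicates, lines are means of 3). The sum lies higher with sorbitol, at 252 CPM or more at 250 and 300 mM, while Krt42 and Krt17 lie below all NS libraries at every dose.

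Genes of proteins that anchor keratin filaments gave 1 call against NS. Of 15 desmosome and plakin genes 9 were tested, and none was called higher than NS in any group. Dst, which encodes the plakin dystonin, was the single call, lower at 250 mM (49.8, 39.7 and 39.6 CPM, against 104, 83.6 and 64.2 CPM in NS; log2 -0.97 ± 0.26 SE, adjusted p = 0.0420 in edgeR's test). That call held only without NS 3 among the 6 libraries left out in turn, with adjusted p up to 0.202 otherwise. The list's median log2 change was -0.03, -0.54 and -0.23 at the 3 doses, against 0.01, -0.01 and -0.01 over all genes tested, and 4, 2 and 4 of the 9 had estimates above 0. Against ND, Dsp, the gene of desmoplakin, was called lower at 250 and 300 mM, and at 200 mM with the replicate block (-1.40, adjusted p = 0.0283). Of 13 other intermediate filament genes 8 were tested, and the calls against NS were those of 2 neuronal filament genes, 1 of 8 at 250 mM and 2 of 8 at 300 mM. Of all genes tested, 4.47% and 7.89% were called in either direction at these doses. Ina fell at 250 mM (log2 -2.23 ± 0.61 SE, adjusted p = 0.0490 in edgeR's test) and 300 mM (-2.28 ± 0.62, 0.0356), and also at 200 mM with the replicate block (-1.80, 0.0239). Nefl rose at 300 mM (1.38 ± 0.39, adjusted p = 0.0402). Each of these calls was lost without any of 5 of the 6 libraries, all but NS 3, with adjusted p up to 0.215 for Ina and 0.147 for Nefl. Against ND the calls were Des, the desmin gene, lower at 250 and 300 mM, and at 300 mM also Ina lower and Vim (vimentin), Lmna and Lmnb2 (lamins) higher. Of all genes tested, 1.93%, 5.87% and 9.66% were called in either direction against ND at 200, 250 and 300 mM.

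Among factors known to bind or drive simple keratin genes, 23 of 25 had a row and 16 were tested. Tfap2a and Tfap2c had no row, so nothing can be said of them. Gata2, a factor of trophoblast and blood progenitors, was called higher than NS at each dose, and no other factor was called against NS with sorbitol, which made 1 of 16 where 0.586%, 4.47% and 7.89% of all genes were called at the 3 doses. Against ND, Klf4 and Klf5 were called higher and Klf6 lower at each dose, and Gata2 higher at 250 and 300 mM. Of all genes tested, 1.93%, 5.87% and 9.66% were called in either direction against ND at the 3 doses. Gata2 stood at 8.46, 6.28 and 14.7 CPM at 200 mM, against 1.43, 0.00 and 0.89 CPM in NS. It stood at 17.3, 29.4 and 23.0 CPM at 250 mM and at 14.1, 21.9 and 27.6 CPM at 300 mM. NS held 4 Gata2 counts in all, so the fitted log2 changes of 3.32 ± 0.66, 4.54 ± 0.61 and 4.41 ± 0.62 rest on few reads (SE; adjusted p = 0.0332, 0.000740 and 0.000883 in edgeR's test). The 200 mM call was lost without Sorb200 1 (0.0546), Sorb200 3 (0.116), NS 1 (0.0839) or NS 2 (0.135). The list's median log2 change was -0.02, 0.11 and 0.19 at the 3 doses, against 0.01, -0.01 and -0.01 over all genes. Klf4, a factor of stem cells and epithelia, fell in ND (63.0, 34.6 and 36.6 CPM, against 399, 236 and 137 CPM in NS; log2 -2.50 ± 0.41 SE, adjusted p = 0.0473 in edgeR's test), a call lost without any of 5 of the 6 libraries, all but NS 3 (adjusted p up to 0.371). With the replicate block Klf4 was higher at 200 mM than in NS (1.10, adjusted p = 0.0121). The AP-1 gene Fosl1 had no tag in any group.

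Of 19 chaperones, kinases and binding proteins of keratins 16 were tested, and Hspb1 was the one called against NS, at each dose, or 1 of 16 where 0.586%, 4.47% and 7.89% of all genes were called. Hspb1 encodes the small heat shock protein Hsp25, which associates with keratin filaments. It stood at 456, 321 and 511 CPM at 200 mM, against 135, 144.5 and 211 CPM in NS. It stood at 726, 595 and 662 CPM at 250 mM and at 646, 740.5 and 754 CPM at 300 mM, above all NS libraries. The log2 changes were 1.40 ± 0.24, 2.02 ± 0.25 and 2.13 ± 0.25 (SE; adjusted p = 0.0122, 0.000377 and 0.000191 in edgeR's test). The first was lost without Sorb200 3 (0.0634), NS 1 (0.0839) or NS 2 (0.108). Against ND Hspb1 was also the one gene of the list called, higher at each dose, where 1.93%, 5.87% and 9.66% of all genes were called. In ND it had 143, 186 and 204 CPM and did not pass (log2 0.12, adjusted p = 0.956 in edgeR's test).

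Since simple keratins belong to several early lineages, the markers of those lineages were read beside them. Of 20 trophectoderm and trophoblast markers 12 were tested, and 2 (Gata2, Plac1), 3 (Gata2, Hand1, Plac1) and 3 (Eomes, Gata2, Plac1) were called higher than NS at 200, 250 and 300 mM, and none lower. Of all genes, 0.586%, 4.47% and 7.89% were called in either direction. The summed level of the 18 that had a row was 910 to 1227 CPM at 200 mM, 1276 to 1844 at 250 mM and 1273 to 1831 at 300 mM, against 927 to 1304 CPM in NS. In ND this sum was 1205 to 1781 CPM, and its median was 1577 CPM both in ND and at 250 mM. Rhox6, Rhox9, Esrrb and Lgals3, all abundant in NS, made up most of the sum in every group. They averaged 383, 182, 203 and 236 CPM in NS and 694.5, 396, 179 and 188 CPM in ND. The sum therefore says little about the less abundant markers. Among defining markers, Prl3d1 of giant cells was at 0 in all groups, Psg17 was at 0 in all but 300 mM, and Cdx2 was at 0 in ND and NS. Psg17 had 2 counts at 300 mM. Cdx2 had 1, 11 and 8 counts at 200, 250 and 300 mM, Elf5 had 1, 7 and 2, and Tpbpa had 0, 1 and 1. In ND and NS, Elf5 had 2 and 2 counts and Tpbpa had 0 and 1. All were too low to be tested. Of 21 primitive and parietal endoderm markers 10 were tested, and 1 (Col4a2), 3 (Gata6, Col4a1, Col4a2) and 3 (the same genes) were called higher than NS at the 3 doses, with none lower. Col4a1 also passed at 200 mM with the replicate block (1.41, adjusted p = 0.00951). The sum of the endoderm markers was 967 to 1719, 976 to 1450 and 1420 to 2048 CPM, against 634 to 1350 CPM in NS and 573 to 754.5 CPM in ND. Sparc alone made up most of it, with means of 992.5, 921 and 1310 CPM at the 3 doses, 912 in NS and 477 in ND. Of 12 markers of surface ectoderm and stratified epithelium 4 were tested. Krt17 was called lower than NS at each dose and Dlx3 higher at 250 mM. The sums were 129 to 475, 134 to 283 and 176 to 298 CPM, against 113 to 196 CPM in NS and 72.8 to 192.6 CPM in ND. Most of these tags were of Sfn, with means of 214, 159 and 207 CPM at the 3 doses, 91.8 in NS and 114.5 in ND. Krt5 was at 0 at 200 mM, at 300 mM and in ND, and Trp63 at 250 mM and in NS. Of 10 fibroblast markers 2 were tested and none was called against NS, although S100a4 passed at 200 mM with the replicate block (3.38, adjusted p = 0.00339). The fibroblast sums were 307 to 354, 251 to 300.1 and 314 to 333 CPM, against 169 to 301 CPM in NS and 136 to 257 CPM in ND. Fn1 made up most of them, with means of 302.5, 259 and 304 CPM at the 3 doses, 230 in NS and 180 in ND. Col3a1, Lum and Postn were at 0 in all groups. No marker of undifferentiated cells was called against NS with sorbitol. In ND, Klf4 and Tdgf1 were called lower than in NS, and no marker of the other lists was called. Of all genes tested, 0.0319% were called in ND in either direction. No gene at all was called in ND without ND 1, ND 2, NS 1 or NS 2, so the Tdgf1 call was lost in each of these cases. Against ND, Klf4, Tdgf1 and S100a4 were called higher at each dose. The trophoblast markers Hand1 and Plac1 were higher than in ND at each dose, with Gata2 at 250 and 300 mM and Lgals3 at 300 mM, and Rhox9 was lower at 200 and 300 mM. The endoderm markers Lama1 and Col4a1 were higher than in ND at each dose, with Gata6 and Lamc1 at 250 and 300 mM and Col4a2 and Sparc at 300 mM, and no ectoderm marker was called. Of all genes tested, 1.93%, 5.87% and 9.66% were called in either direction against ND at the 3 doses. Plac1 had only 1 count in NS and 7 counts in ND. The part of any of these cell types in the keratin values was not tested.

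The genes whose pattern was most like the keratins were found by Pearson's r with the mean log2(CPM + 1) of Krt8 and Krt18 over the 15 libraries. They were Zfp36l3 (r = 0.954), Peg10 (0.926), Hspb1 (0.918), Gcnt1 (0.916) and Vgll3 (0.909). Such a likeness is mostly a likeness between groups, since the libraries are split into those with and without sorbitol, and replicates of 1 number also share depth. Over the 9 sorbitol libraries alone the same genes had r of 0.788, 0.674, 0.681, 0.254 and 0.620, and none of the 5 was among the 20 most alike. By Spearman's rho over 15 libraries, 3 of the 5 were among the 20 most alike, Zfp36l3 (0.946), Peg10 (0.936) and Gcnt1 (0.904).

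Zfp36l3, which encodes a tristetraprolin-like RNA-binding protein of the placenta, had 28.9, 14.7 and 21.2 CPM at 200 mM, against 1.91, 0.91 and 2.68 CPM in NS. It had 48.2, 29.4 and 30.1 CPM at 250 mM and 35.4, 24.4 and 12.0 CPM at 300 mM, and like Krt18 it was highest in replicate 1 of each dose. Peg10, an imprinted gene needed for the placenta, had 223, 137 and 110.2 CPM at 200 mM, 293, 198.5 and 129.9 CPM at 250 mM and 277, 147 and 128 CPM at 300 mM, against 22.9, 20.9 and 17.0 CPM in NS. Both were called at each dose, with log2 changes of 3.51, 4.22 and 3.66 for Zfp36l3 and 2.94, 3.34 and 3.17 for Peg10 (adjusted p = 0.00854 or less in edgeR's test). The 5 genes were picked for their pattern over these same libraries, so their calls are not independent of that choice. Peg10 kept its calls without any 1 library, and Zfp36l3 lost its call at 200 mM without NS 1 (0.0639) or NS 2 (0.0584). Gcnt1, a glycosyltransferase that branches O-glycans, averaged 34.7 ± 3.92, 37.9 ± 5.79 and 43.4 ± 7.39 CPM at the 3 doses, against 12.6 ± 5.34 CPM in NS (SD, n = 3 each). Its log2 changes were 1.51, 1.64 and 1.83 (adjusted p = 0.0458, 0.0112 and 0.00377 in edgeR's test). The 200 mM call of Gcnt1 was lost without any of 5 of the 6 libraries, all but NS 3 (up to 0.231), and the 250 mM call without Sorb250 1 (0.0556) or NS 1 (0.0689). Vgll3, a cofactor of TEAD factors, averaged 12.9 ± 5.0 CPM at 250 mM and 15.7 ± 1.8 CPM at 300 mM, against 1.49 ± 1.85 CPM in NS. It was called at these doses (log2 3.31 and 3.57, adjusted p = 0.0195 and 0.00885 in edgeR's test), the first lost without Sorb250 1 (0.0775), Sorb250 2 (0.0782), NS 1 (0.0947) or NS 2 (0.0815), and NS held 5 counts of it. In ND these 5 genes did not pass, with log2 changes of 0.12 for Hspb1 to 1.42 for Vgll3.

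**Figure D5:**
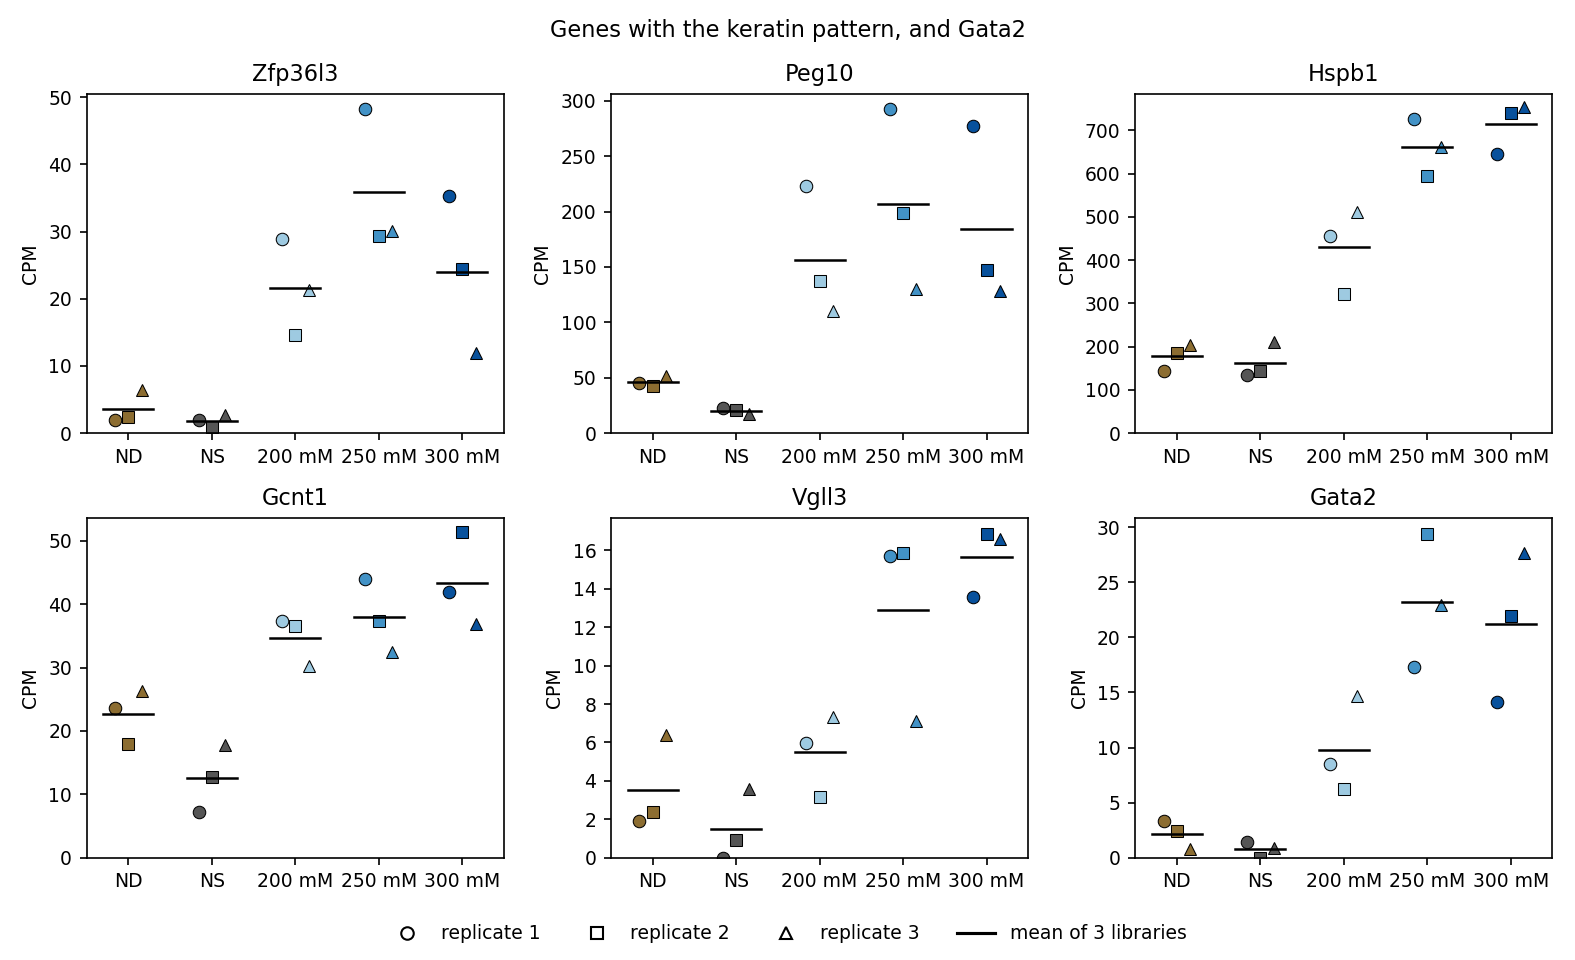
CPM in every library (linear axis from 0) of the 5 genes most like the mean of Krt8 and Krt18, and of Gata2, in ND, NS and the 3 sorbitol doses. Symbols are replicates and lines are means of 3. Peg10 lies between 17.0 and 22.9 CPM in NS and at 110.2 CPM or more with sorbitol.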

How the data were processed

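Base calling used CASAVA 1.8.2, alignment STAR and counting HTSeq on the mouse build mm9, per the submitters' processing notes. The settings for strand, annotation and multiple alignments were not stated in the labels or headers. The authors deposited 4 tables of whole-number counts, each setting the same 3 NS libraries beside another group, with their own log2 fold change and p-value (FDR) columns from edgeR. Counts were tested with edgeR 4.0.16 (glmQLFit and glmQLFTest, TMM factors, filterByExpr with a minimum count of 10 and a minimum total of 15) in R 4.3.3, all 15 libraries in 1 fit, with Benjamini-Hochberg adjustment over all genes and a threshold of 0.05. CPM used TMM-scaled totals of the genes that passed the filter. The SE is the log2 change over the square root of F. No 2 libraries of 1 group agreed within sampling noise, so none was merged. P-values measure the spread between libraries labelled as biological triplicates.

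The members and lists were chosen with earlier results of these data known. Beside the keratins, the text names the 5 genes most like Krt8 and Krt18, and from each keratin list up to 4 genes called against NS, highest CPM first. Other genes beside a count were named after their values were seen. Keratin symbols were taken as Krt followed by a number, which leaves out Krtdap, not a keratin. Copies were searched with BLAST+ 2.17.0 (at least 95% identity over 100 bases).

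Same-numbered libraries deviated together (correlation over 0.1) in 24 of 30 pairs. All 3 pairs did so in 4 of 10 pairs of groups, which were 200 mM with NS, with ND and with 250 mM, and 250 with 300 mM. For these the numbers were taken to pair the libraries, and the value with the replicate block is given where it changed a call. The lowest of these correlations, for replicate 2 of 200 mM with NS, was 0.115. Replicate 1 was the deepest in every group, and the part of depth in the correlations was not tested. Libraries of unlike number were not compared. The block was fitted to all 15 libraries, including the groups whose numbers were not taken to pair. Alternatives were DESeq2 1.42.0's size factors and test, library totals alone, no filter, the replicate block, replicates 2 and 3 only, only the groups compared, and leaving out each library.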

Additional observations from a re-analysis of the deposited data

How the results depend on the processing

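Depth and group size set the limits: NS held 27 Krt7 and 35 Krt8 counts in 3 libraries, and replicates 2 and 3 were less deep than replicate 1. At 250 and 300 mM every keratin kept its direction against NS under every setting run. Calls of the 4 simple keratins against NS at 250 and 300 mM stood with DESeq2's size factors, with library totals alone, with DESeq2's test, without the filter and with the replicate block. The cause of the changes below was not tested, beyond the smaller number of libraries in the settings that drop some.

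At 200 mM against NS, 1 keratin was called, against 2 with library totals alone (Krt19 1.62, adjusted p = 0.0432), 3 with DESeq2's test (Krt8 2.48, Krt19 1.62), 3 without the filter (Krt8 2.53, Krt19 1.62) and 3 with the replicate block (Krt8 2.62, Krt19 1.63). With replicates 2 and 3 only it was 0 (Krt18 2.48), and with only the groups compared 0 (Krt18 3.14, adjusted p = 0.223). Of all genes, the main fit called 38 higher than NS at 200 mM. In the order given, the other settings called 34, 93, 105, 150, 4 and 1 higher. With replicates 2 and 3 only, 1 keratin was called at 250 mM (Krt7 2.20, Krt8 3.05 and Krt19 1.84 were not) and 1 at 300 mM (Krt7 1.56, Krt8 2.78 and Krt19 1.15 were not). That setting called 22 and 51 of all genes higher than NS at these doses. With only the groups compared, Krt19 at 300 mM was 1.39 and lost its call (adjusted p = 0.0527). In ND, 1 keratin was called without the filter (Krt18 1.62, adjusted p = 0.0128) and 1 with the replicate block (Krt18 1.67, adjusted p = 0.0218), although the numbers were not taken to pair ND with NS. Of all genes, 11 were called higher in ND without the filter and 13 with the block. Against ND at 200 mM the count of 1 was 3 without the filter, 3 with the replicate block, 0 with replicates 2 and 3 only and 0 with only the groups compared. In that order these settings called 227, 298, 28 and 30 of all genes higher than ND, against 118 in the main fit. With replicates 2 and 3 only, the count of keratins called against ND was 0 at 250 mM and 0 at 300 mM, where Krt7 turned to -0.11. With the replicate block Krt18 also passed against ND at 250 mM (1.31, adjusted p = 0.00411) and 300 mM (1.25, 0.00423). The block changed no other call of the 4 simple keratins. In the lists it also brought calls against ND at 200 mM for Gata2 (1.99, adjusted p = 0.0370), Lmna (1.196, 0.0172), Sparc (1.01, 0.00871) and Fgf4 (0.78, 0.0204), all higher. Lower with it were Ina (-1.49, 0.0471), Grhl2 (-1.30, 0.0283), Rhox6 (-1.26, 0.00983), Ywhaq (-0.90, 0.0305) and Sqstm1 (-0.73, 0.0194).

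The 12 other genes named by the rule had 27 calls against NS. Of these 4 were lost with library totals alone (adjusted p = 0.0664 for Gcnt1 at 200 mM and, at 250 mM, 0.0582 for Krt42, 0.0616 for Dst and 0.0684 for Ina). Without the filter 2 were lost (Dst at 250 mM, 0.0644, and Nefl at 300 mM, 0.103) and with DESeq2's size factors 1 (Klf4 in ND, 0.0568). DESeq2's test and the replicate block ended 0, and replicates 2 and 3 only ended 18. With only the groups compared 8 of 25 were lost: at 200 mM Hspb1 (0.266), Krt17 (0.254), Zfp36l3 (0.131), Peg10 (0.0562) and Gcnt1 (0.426), at 250 mM Dst (0.0778), at 300 mM Nefl (0.0824), and in ND Klf4 (0.533).

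Leaving out each library in turn gave 0 to 3 keratins called against NS at 200 mM, 1 to 4 at 250 mM and 2 to 4 at 300 mM, and against ND 0 to 2, 1 to 2 and 0 to 2. Log2 changes against NS then ran, at 200 mM, from 1.98 to 3.84 for Krt8, 2.32 to 3.53 for Krt18 and 1.43 to 1.76 for Krt19. At 250 mM they ran from 2.13 to 2.45 for Krt7, 2.56 to 3.09 for Krt18 and 1.72 to 2.01 for Krt19, and at 300 mM from 1.57 to 2.14 for Krt7 and 1.03 to 1.57 for Krt19. In ND, Krt8 ran from -0.016 to 2.39 and Krt19 from -0.31 to 0.41. Against ND at 200 mM, Krt7 ran from -0.59 to 0.045. For Krt18 the sign turned in comparisons of doses: from -0.60 to 0.61 between 250 and 200 mM, from -0.50 to 0.37 between 300 and 250 mM, and from -0.34 to 0.26 for the slope. It also turned with replicates 2 and 3 only (0.22 for 250 against 200 mM, 0.039 for the slope) and, between 300 and 250 mM, with DESeq2's size factors (0.009), DESeq2's test (0.0076) and no filter (0.0056).

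The log2 ratio of Krt8 to Krt18 at 200 mM against NS was 0.018 with 0.5 added in place of 1, and ran from -0.74 to 0.64 without 1 library. In ND it ran from -1.28 to 0.10. The type II to type I ratio ran from -0.63 to 0.20 at 200 mM and from -0.23 to 0.60 in ND. Of the 5 most alike genes, 3 remained among the 20 highest by Spearman's rho and 0 in the 9 sorbitol libraries alone.

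Over all genes, calls against NS numbered 55 at 200 mM, 420 at 250 mM, 741 at 300 mM and 3 in ND. Under the other settings they numbered 1 to 268 (268 with the replicate block), 28 to 1683, 116 to 1869 and 0 to 40, and without 1 library 12 to 150, 84 to 1413, 210 to 1500 and 0 to 74. Against ND they numbered 181, 551 and 907 at the 3 doses, and 35 to 512, 140 to 1419 and 361 to 1863 under the other settings. The slope over dose called 9 genes, and 0 to 148 under the other settings.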
